A study of Mus musculus with 6 samples.

Results

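The genes described here encode enzymes that hydroxylate and cross-link collagen. They comprise those of the catalytic subunits of collagen prolyl 4-hydroxylase (P4ha1, P4ha2 and P4ha3), of the lysyl hydroxylases (Plod1, Plod2 and Plod3) and of some lysyl oxidases (Lox, Loxl1, Loxl3 and Loxl4). They were chosen by name, 10 genes in all, and 9 of them were read by a probe set that carries a single gene symbol, among 22180 genes tested. The single probe set for Plod3 is annotated with 2 symbols, so Plod3 has no value here. Each of the 9 genes was read by 1 probe set. The samples were mouse mammary stem cells grown as organoids, each measured on a single-channel Affymetrix array, 6 in all. Organoids are 3-dimensional cultures of epithelial cells. There were 3 arrays of wild-type (WT) cells and 3 of Mll3-null cells, in which MLL3, the histone methyltransferase encoded by Kmt2c, was deleted by CRISPR. The study asked what loss of MLL3 does to these cells. No treatment, animal strain or age is given for either group, and it is not stated if replicates come from separate lines or from cultures of 1 line, so a p-value here reflects only how far these samples vary. Values are log2 expression as deposited, and differences are Mll3-null minus WT.

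Collagen chains are modified in the endoplasmic reticulum before they leave the cell. Prolyl 4-hydroxylase, a tetramer of alpha subunits with the beta subunit P4hb, makes the hydroxyproline that keeps the triple helix stable, and the lysyl hydroxylases make the hydroxylysine used in cross-links. Both enzyme groups need oxygen, 2-oxoglutarate, iron and ascorbate. Outside the cell the copper-dependent lysyl oxidases oxidise lysine and hydroxylysine side chains of collagen and elastin, which then form covalent cross-links. P4ha1, P4ha2, Plod2 and Lox are textbook targets of the hypoxia-inducible factors (HIF) and are called the HIF-responsive forms below. The other 5 measured genes are called the other forms.

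Of the 9 genes, 5 matched a RefSeq promoter window (GRCm38.p6, from 250 bases before to 50 bases after the start). Plod2, Lox, Loxl1 and Loxl3 matched none. Plod2 and Lox are HIF-responsive forms, so the windows do not compare the classes. The 3 prolyl 4-hydroxylase genes are shown because they stand in both classes: P4ha1 and P4ha2 are HIF-responsive forms and P4ha3 is not. Each sequence is the part of the window upstream of the first base of the annotated gene, plus strand: chr10:59323046-59323196 for P4ha1, chr11:54100674-54100923 for P4ha2 and chr7:100285270-100285488 for P4ha3. Capitals mark the core of the hypoxia response element, ACGTG or GCGTG, searched on both strands.
P4ha1: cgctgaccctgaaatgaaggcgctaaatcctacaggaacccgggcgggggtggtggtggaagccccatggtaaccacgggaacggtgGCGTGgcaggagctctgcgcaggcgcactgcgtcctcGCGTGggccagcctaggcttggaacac
P4ha2: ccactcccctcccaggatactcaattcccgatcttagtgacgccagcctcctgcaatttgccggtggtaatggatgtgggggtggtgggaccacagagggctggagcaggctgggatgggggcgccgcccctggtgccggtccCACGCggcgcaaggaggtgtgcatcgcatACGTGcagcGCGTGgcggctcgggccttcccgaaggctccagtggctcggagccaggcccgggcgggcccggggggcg
P4ha3: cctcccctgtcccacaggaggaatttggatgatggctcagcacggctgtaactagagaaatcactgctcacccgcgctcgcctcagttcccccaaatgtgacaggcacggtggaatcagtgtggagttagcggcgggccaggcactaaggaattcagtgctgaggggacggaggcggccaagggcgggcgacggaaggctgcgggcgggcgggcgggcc
Over the whole windows the core matched at 3 places for P4ha1 and at 4 for P4ha2, and P4ha3 had 0 matches. Plod1 had 2 matches and Loxl4 had 1. The core is short, and 43.8% of all 32851 promoter windows hold it, so a match is a description of the letters and not a binding site.

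None of the collagen-modifying genes separated Mll3-null from WT cells. Of the 9 genes, 0 had an adjusted p under 0.05 (limma, Benjamini-Hochberg over all genes), where 0% of all genes did, and 0 had an unadjusted p under 0.05, where 4.93% of all genes did. The values of the groups overlapped for all 9 genes, while they did not overlap for 10.7% of all genes. By group means 5 genes were higher and 4 lower in Mll3-null cells, beside 51.5% of all genes with a higher mean, and without Mll3-null replicate 3 only 2 of the 9, P4ha1 and Plod1, had a higher mean.

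**Figure D1:**
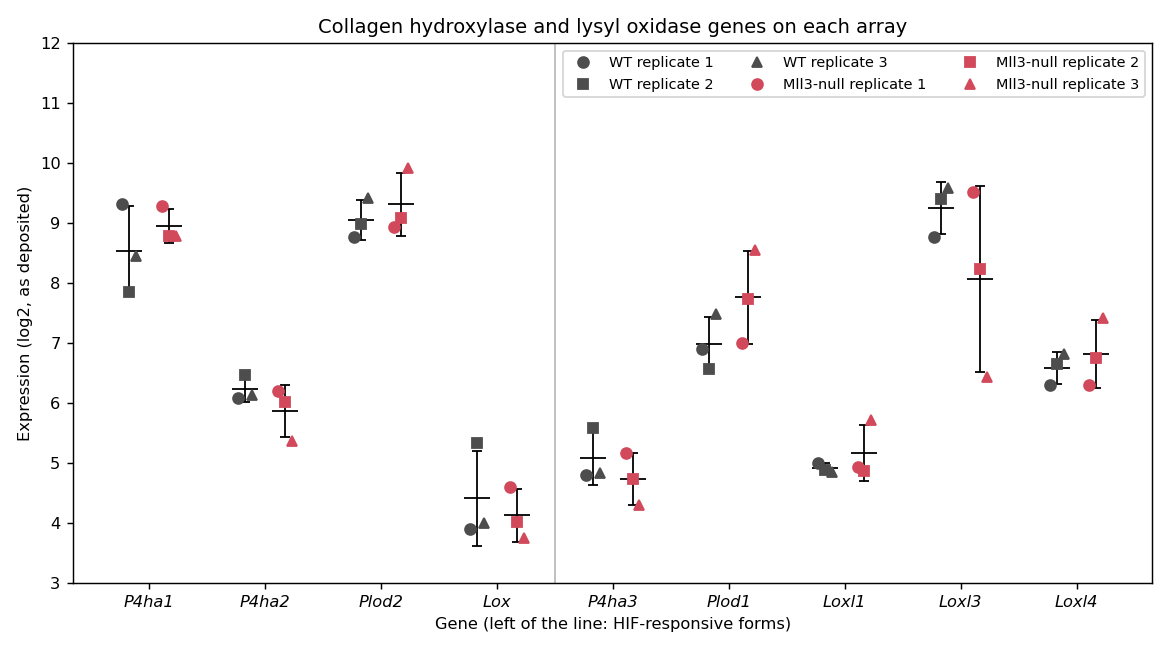
Deposited log2 expression of each gene (vertical axis) on each array, with WT in grey and Mll3-null in red and a marker shape for each replicate. The horizontal bars are group means and the whiskers 1 SD (n = 3); the groups overlap for all 9 genes, and Mll3-null replicate 3 is the highest or lowest array for 8 of them.

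Mll3-null replicate 3 stood apart from the other arrays, and these genes show it. It was the highest array for 4 genes (Plod1, Plod2, Loxl1 and Loxl4) and the lowest for 4 (P4ha2, P4ha3, Lox and Loxl3), so 8 of 9 had an extreme there, against 45.8% of all genes. The same array had the basal keratin gene Krt14 at 6.65 against 11.74 to 12.43 elsewhere, and Trp63, the basal transcription factor gene, at 5.02 against 7.86 to 8.84. The epithelial markers Epcam (10.72 to 10.94) and Krt8 (10.16 to 10.57) were high on all 6 arrays. The part of the basal genes' level in the results below was not tested. In bulk RNA, fewer cells of a type and less RNA per cell cannot be told apart.

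The level of the targeted gene does not mark the genotype on these arrays: Kmt2c had a mean of 6.01 ± 0.55 over the WT arrays and of 6.11 ± 0.29 over the Mll3-null arrays (SD, n = 3 each), and the position of its probe set relative to the deletion is not known here. Markers of other cell types were mostly dim, with exceptions. The mean level of 9 fibroblast markers ran from 4.12 to 4.29 in WT and from 4.17 to 4.34 in Mll3-null arrays, beside array medians over all probe sets of 4.35 to 4.40. The proteoglycan genes Dcn (2.80 to 3.20) and Lum (3.03 to 3.40) lay below those medians, but 3 of the 9, Col1a1 (5.40 to 5.65), Thy1 (4.66 to 4.91) and Pdgfra (4.55 to 6.32, the highest in Mll3-null replicate 2), lay above them on all arrays. The mean of 5 immune markers lay between 3.83 and 3.98 and that of 5 endothelial markers between 4.02 and 4.13, with Ptprc at 3.05 to 3.25 and Cdh5 at 3.09 to 3.42. Of these, Cd68 (4.81 to 5.61) lay above the medians on all arrays, and Pecam1 reached 5.07. The part of such cells in the results was not tested.

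The prolyl 4-hydroxylase genes did not move together. P4ha1, whose product is the main catalytic subunit in most cells, was at 9.32, 7.85 and 8.45 in WT replicates 1 to 3 and at 9.29, 8.79 and 8.79 in Mll3-null replicates 1 to 3. The WT arrays spanned 1.47 log2 units, or 2.76-fold, with both the highest and the lowest value of the 6, and the Mll3-null arrays lay inside that span. The difference was 0.41 ± 0.37 (SE), and its 95% interval ran from -0.46 to 1.29 (limma, adjusted p = 0.85). It was 0.80 without WT replicate 1, where the groups no longer overlapped (unadjusted p = 0.021, adjusted p = 0.92, limma), and 0.07 without WT replicate 2 (adjusted p = 0.97). That unadjusted p was the smallest of the 15 alternative settings given below. WT replicate 1 was the only WT array above any Mll3-null array. With it left out, 878 of all 22180 genes had an unadjusted p under 0.05 (limma), against 1093 with all arrays. The share of all genes whose groups did not overlap in that setting was not computed. P4ha1 lies on chromosome 10, whose 443 expressed genes had a median deviation from their 6-array means of 0.23 in WT replicate 1, while the other arrays lay from -0.07 to 0.01. With such chromosome-wide shifts taken out, P4ha1 in WT replicate 1 was at 9.09, still the highest WT value but below Mll3-null replicate 1 at 9.32, so that the Mll3-null arrays no longer lay inside the WT span, and the difference was 0.52 ± 0.30 (SE; adjusted p = 0.83).

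P4ha2, the second alpha subunit, had its values at 6.08, 6.47 and 6.13 in WT and at 6.20, 6.01 and 5.37 in Mll3-null arrays. Only Mll3-null replicate 3 was clearly apart, 0.65 below the next lowest array. The difference was -0.37 ± 0.23 (SE), its interval ran from -0.92 to 0.19 (adjusted p = 0.84), and it was -0.12 without that array. P4ha3, the third alpha subunit, was at 4.79, 5.58 and 4.84 in WT and at 5.16, 4.73 and 4.29 in Mll3-null arrays. WT replicate 2 was the highest and Mll3-null replicate 3 the lowest, and the difference was -0.35 ± 0.29 (SE; interval -1.05 to 0.35, adjusted p = 0.85). Leaving out WT replicate 2 gave -0.09, and leaving out Mll3-null replicate 3 gave -0.13.

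Among the lysyl hydroxylases, Plod1, which hydroxylates lysines of the collagen helix, had the widest positive difference of the 9 genes. It was at 6.90, 6.57 and 7.48 in WT and at 7.001, 7.74 and 8.55 in Mll3-null arrays. Mll3-null replicates 2 and 3 lay above all WT arrays, while replicate 1 lay within the WT range. The difference was 0.78 ± 0.41 (SE), or 1.72-fold, and its interval ran from -0.21 to 1.77 (adjusted p = 0.84). It was 1.16 without Mll3-null replicate 1 (unadjusted p = 0.015, adjusted p = 0.29, limma) and 0.39 without Mll3-null replicate 3. That unadjusted p was the smallest of the 15 alternative settings given below. Replicate 1 was the only Mll3-null array within the WT range. Without it 2742 of all 22180 genes had an unadjusted p under 0.05, against 1093 with all arrays.

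Plod2, which hydroxylates the telopeptide lysines, was at 8.76, 8.98 and 9.41 in WT and at 8.93, 9.09 and 9.92 in Mll3-null arrays. Apart from Mll3-null replicate 3, which was 0.51 above the next array, the Mll3-null values lay within the WT range. The difference was 0.26 ± 0.29 (SE; interval -0.44 to 0.96, adjusted p = 0.87) and turned to -0.04 without Mll3-null replicate 3.

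Lox, the founding lysyl oxidase, was at 3.90, 5.32 and 4.003 in WT and at 4.60, 4.01 and 3.75 in Mll3-null arrays. The probe set was dim, on 4 of the 6 arrays below the array medians of 4.35 to 4.40, and WT replicate 2 was the highest. The difference was -0.29 ± 0.42 (SE; interval -1.29 to 0.71, adjusted p = 0.90) and turned to 0.17 without WT replicate 2. Loxl1, which is needed for elastic fibres, was flat at 5.001, 4.88 and 4.84 in WT and at 4.92 and 4.86 in Mll3-null replicates 1 and 2, and stood at 5.71 in Mll3-null replicate 3. Its difference was 0.26 ± 0.23 (SE; interval -0.30 to 0.81, adjusted p = 0.85) and -0.02 without that array.

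Loxl3, a lysyl oxidase with scavenger receptor domains, had the widest difference of the 9 genes. It was at 8.77, 9.40 and 9.59 in WT and at 9.52, 8.23 and 6.43 in Mll3-null arrays. Mll3-null replicate 1 lay within the WT range, replicate 2 was 0.54 below the lowest WT array, and replicate 3 was 1.81 below the next lowest array. The difference was -1.19 ± 0.73 (SE), or 2.28-fold lower, and its interval ran from -2.95 to 0.56 (adjusted p = 0.84). Leaving out Mll3-null replicate 3 gave -0.38, and leaving out replicate 1 gave -1.92 (unadjusted p = 0.012, adjusted p = 0.28, limma). As for Plod1, that unadjusted p was the smallest of the 15 alternative settings. Replicate 1 was the only Mll3-null array within the WT range. Loxl4, which also has scavenger receptor domains, was at 6.30, 6.65 and 6.81 in WT and at 6.29, 6.74 and 7.41 in Mll3-null arrays, with a difference of 0.23 ± 0.29 (SE; interval -0.47 to 0.93, adjusted p = 0.88). It turned to -0.07 without Mll3-null replicate 3.

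**Figure D2:**
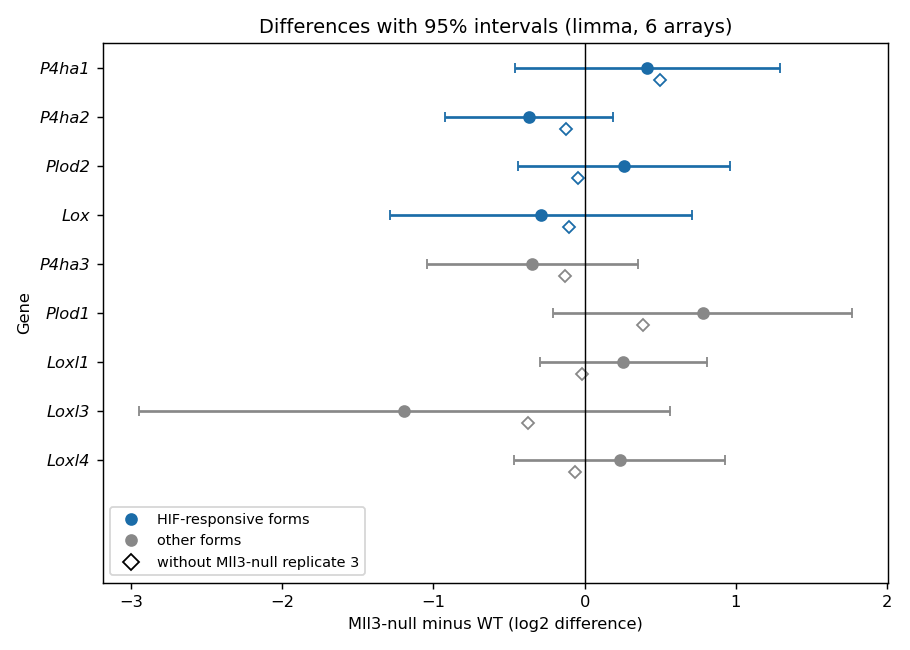
Difference between Mll3-null and WT cells for each gene on the log2 scale (horizontal axis), with the 95% interval from limma over 6 arrays; open diamonds give the difference without Mll3-null replicate 3. All 9 intervals include 0, and the diamonds of Plod2, Loxl1 and Loxl4 lie on the other side of 0 from the filled points.

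The range over the 6 arrays exceeded 1 log2 unit for 8 of 9 genes, against 10.5% of all genes and 15% of the 14720 genes with a mean over 4. Without Mll3-null replicate 3 it did so for 4 of 9 (P4ha1, Plod1, Lox and Loxl3), against 5.69% of all genes. The 6-array range ran from 0.87 for Loxl1 to 3.16 for Loxl3, an 8.95-fold span. Within a single group the range exceeded 1 for 5 of 9 genes, P4ha1 and Lox in WT and Plod1, Loxl3 and Loxl4 in Mll3-null cells, against 8.37% of all genes. The Mll3-null range was wider than the WT range for 7 of 9 genes, against 55.1% of all genes, and with Mll3-null replicates 1 and 2 alone this held for 1 of 9, Loxl3, against 31.8%. Mll3-null replicate 1 lay within the WT range for 8 of 9 genes and 0.005 below it for Loxl4. The share of all genes for which it did so was not computed, so this count cannot be called particular to these genes. For 4 genes (Plod1 above; P4ha2, P4ha3 and Loxl3 below) Mll3-null replicates 2 and 3 lay outside the WT range on one side with replicate 1 inside it, a pattern that 12.7% of all genes show and that was picked out after the values were seen.

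**Figure D3:**
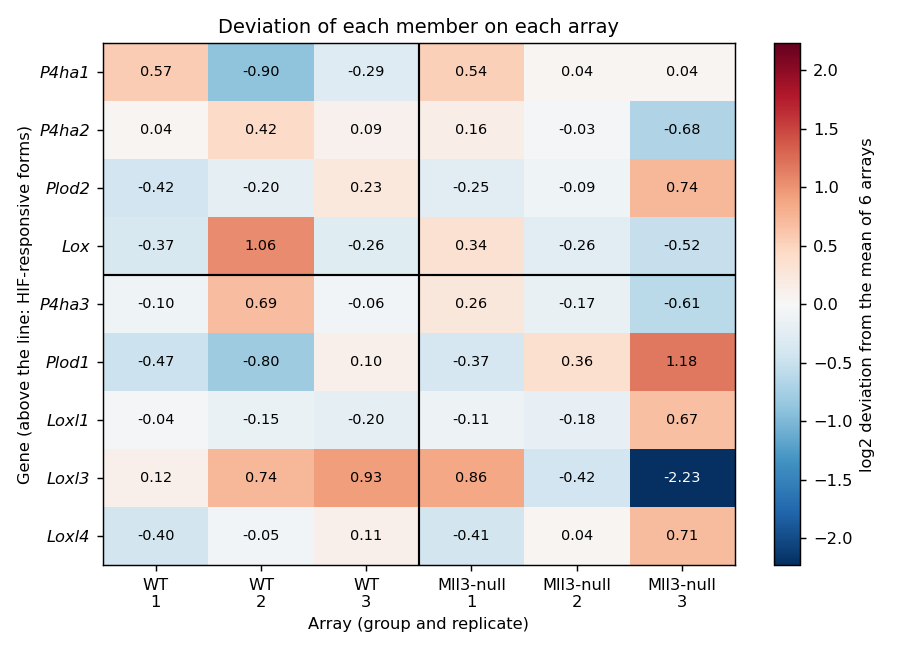
Deviation of each gene from its own mean over the 6 arrays (colour and printed value, log2), with arrays in columns and genes in rows. Mll3-null replicate 3 runs from -2.23 for Loxl3 to 1.18 for Plod1, and the HIF-responsive forms above the line deviate in opposite directions on the same array.

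The HIF-responsive forms were not higher than the other forms as a class. P4ha1 and Plod2 had a higher mean in Mll3-null cells and P4ha2 and Lox a lower one, a median difference of -0.01 over the 4 genes, against 0.23 over the 5 other forms and 0.01 over all genes. The gap between the class medians was -0.25 and shrank to -0.01 without Mll3-null replicate 3. It has no test, since the genes were chosen by name with results known. Counting Plod1 and Loxl4, which have also been reported as HIF-induced, among the responsive forms turned the gap to 0.59 (0.25 over 6 genes against -0.35 over 3), so the sign depends on how the classes are drawn. By array, the median deviation of the HIF-responsive forms was -0.16, 0.11 and -0.08 in WT and 0.25, -0.06 and -0.24 in Mll3-null replicates 1 to 3, without separation of the groups.

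Other HIF targets are set beside these genes as a reference. All 11 measured genes of a short reference list, known from earlier results of these data to be higher, had a higher mean in Mll3-null cells, with a median difference of 0.63, and 0 passed the adjusted threshold (limma; 7 had an unadjusted p under 0.05). Vegfa, the angiogenic growth factor, was at 8.61, 8.06 and 8.28 in WT and at 9.71, 9.39 and 9.46 in Mll3-null arrays. Ndrg1 differed by 1.27 ± 0.19 and Ero1a, an oxidase of protein folding, by 0.84 ± 0.14 (SE; adjusted p = 0.84 for both), with no overlap of the groups. WT replicate 2, where P4ha1 was lowest, was also the lowest WT array for 9 of these 11 genes, against 33.9% of all genes. The list was drawn up with results of these data known, so that count is a description only. It was the lowest WT array for 2 of the 9 enzyme genes, which is not far from that share of all genes. The HIF-responsive forms P4ha2 (6.47) and Lox (5.32) had their highest value of the 6 arrays in WT replicate 2. Among related dioxygenases, the HIF prolyl hydroxylase Egln3 was at 8.52, 5.84 and 8.32 in WT and at 8.71, 10.48 and 10.66 in Mll3-null arrays (difference 2.39 ± 0.84, SE, adjusted p = 0.84). Egln1 differed by 0.33 ± 0.21, the asparaginyl hydroxylase Hif1an by 0.18 ± 0.11, Egln2 by 0.02 ± 0.11 and the transmembrane enzyme P4htm by 0.00053 ± 0.089 (SE), none past the threshold.

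The partners of these enzymes in collagen maturation did not differ detectably either. Of 35 listed genes 32 had a value, 12 with a higher and 20 with a lower mean in Mll3-null cells, a median of -0.06, and 0 passed the adjusted threshold (limma; 1 had an unadjusted p under 0.05). P4hb, the shared beta subunit of prolyl 4-hydroxylase, was steady at 10.84, 10.68 and 10.83 in WT and at 10.81, 10.87 and 10.94 in Mll3-null arrays. Its difference was 0.09 ± 0.09 (SE, adjusted p = 0.86). The partners with the smallest p were the endoplasmic reticulum prolyl isomerase Fkbp7 (-0.36 ± 0.14, SE), Crtap of the prolyl 3-hydroxylation complex (-0.32 ± 0.14), the procollagen proteinase enhancer Pcolce2 (-0.62 ± 0.28) and the prolyl 3-hydroxylase P3h1 (-0.31 ± 0.17), each with an adjusted p of 0.84. The groups did not overlap for Fkbp7 and Crtap, 2 of the 32 or 6.25%, against 10.7% of all genes. Differences of the partners ran from -1.90 for Postn, lowest in Mll3-null replicate 3, to 0.62 for Fbln5, highest in that array.

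Among the substrates, 24 collagen chains and elastin, 11 of 25 had a higher and 14 a lower mean (median -0.02), and 0 passed the adjusted threshold (limma; 1 had an unadjusted p under 0.05). Col18a1 was at 9.40, 9.47 and 9.42 in WT and at 9.29, 8.16 and 7.37 in Mll3-null arrays, and Col7a1, the anchoring fibril collagen, at 7.48, 7.40 and 7.38 and at 7.42, 6.76 and 5.85. Like Loxl3, both were lowest in Mll3-null replicate 3, next lowest in replicate 2, and near the WT values in replicate 1. Col6a1 differed by -0.86 ± 0.39 and elastin, Eln, by 0.30 ± 0.15 (SE), with an adjusted p of 0.84 for all 4 genes.

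The genes whose pattern over the 6 arrays was most like that of P4ha1, Plod2 and Lox were found by the root-mean-square difference of mean-centred log2 values. They were sought among the 8752 genes with a mean over 6, from which predicted genes were then left out. Lox itself, with a mean of 4.26, lay under that level. For P4ha1 they were Mark1 (0.16), Lhfp (0.23) and Tpi1 (0.24). For Plod2 they were Firre (0.096), Nacc2 (0.11) and Tk2 (0.11), and for Lox they were Steap4 (0.16), Ifnlr1 (0.22) and Vegfc (0.23). None of the 9 differed by genotype past the threshold (adjusted p from 0.84 to 0.96, limma), where 0% of all genes did. They were picked for likeness to genes that did not differ, so this adds no evidence.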

How the data were processed

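The submitters' processing notes name Affymetrix Expression Console. Its version, the build, and how probe sets were summarized and normalized were not given in the sources used. The deposited log2 values (1.72 to 13.56 over 41345 probe sets) have nearly equal medians on all arrays, so the authors had put them on a common scale. Of these probe sets 23521 carry 1 symbol in the platform annotation, 1814 several and 16010 none. For the 1082 genes with several probe sets the one with the highest mean was used, which left 22180 genes. There were 0 other sample columns.

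The comparison used lmFit and eBayes of limma 3.58.1 (R 4.3.3) on 6 arrays with genotype alone in the model, two-sided, with Benjamini-Hochberg adjustment over all genes and a threshold of 0.05. The script was tested on simulated data. The genes, lists and classes were chosen with earlier results of these data known. Genes named were the 9 measured enzymes, the 4 genes of smallest p in the partner and substrate lists, and fixed reference genes and markers. The 3 genes most like P4ha1, Plod2 and Lox were named too, as were the genes with the lowest and highest difference in those lists. Col18a1 and Col7a1 are compared with Loxl3 after their values were seen. Genes with a mean over 6 were called expressed for chromosome medians. Both groups have replicates 1 to 3, which no label links, so no block was used in the main fit. The correlations of same-numbered deviations across genes were 0.03, 0.08 and 0.31, and those of the other pairs ran from -0.29 to 0.22. They do not settle if the numbers pair the samples, and a fit with the block is given below. The number of arrays limits the precision, and no detection values were used.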

Additional observations from a re-analysis of the deposited data

How the results depend on the processing

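With 3 arrays a group, 0 genes passed the adjusted threshold in any of the 15 alternative settings, and no enzyme gene crossed it. Some settings changed the model: a trend and robust spread model, array weights, and a replicate block. Others changed the values: quantile normalization, median centring, the mean of probe sets, only genes with a mean over 4, and chromosome shifts removed. The rest left out each array in turn, or WT replicate 1 and Mll3-null replicate 3 together. Fitting the replicate number as a block left 0 genes past it (1290 at an unadjusted p under 0.05, against 1093 without the block; 2504 with array weights and 2742 without Mll3-null replicate 1), and the block changed no call at the adjusted threshold. With the block Plod1 had an unadjusted p of 0.025 (adjusted p = 0.76, limma), against 0.10 without it. P4ha1, P4ha2, P4ha3, Plod1 and Loxl3 kept their direction in all 15 settings, but several settings could not change a difference. The trend and robust spread model, the mean of probe sets, the limit to genes with a mean over 4 and the block left these differences unchanged. The share of all genes that kept their direction was not computed. Leaving out 1 array gave differences of 0.07 to 0.80 for P4ha1, -0.54 to -0.12 for P4ha2, -0.56 to -0.09 for P4ha3, 0.39 to 1.16 for Plod1, -0.04 to 0.45 for Plod2, -0.54 to 0.17 for Lox, -0.016 to 0.41 for Loxl1, -1.92 to -0.38 for Loxl3 and -0.07 to 0.49 for Loxl4. Without WT replicate 1 and Mll3-null replicate 3 together, Plod2 turned to -0.19 and Loxl4 to -0.21, and 3 of 9 genes had a higher mean. The gap between HIF-responsive and other forms ran from -0.52 to -0.01 when 1 array was left out, was 0.02 without WT replicate 1 and Mll3-null replicate 3 together, a change of sign, and was 0.59 with the wider class. The median of the partners ran from -0.10 to 0.01. The reversals follow from leaving out the array named in each case; other causes were not tested. Counts for the collagen chains, the HIF reference genes and the 9 enzymes under these settings were added after seeing the data. All 11 reference genes kept a higher mean in every setting. That list was known from these data to be higher, so this adds no evidence.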

Other observations

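Of the 32 measured collagen maturation partners, 5 had Mll3-null replicates 2 and 3 outside the WT range on one side and replicate 1 inside it. The enzyme genes Plod1, P4ha2, P4ha3 and Loxl3 showed this array pattern too. The share of partners was close to the 12.7% of all genes that show it. P4hb, Mia3, which exports bulky collagens from the endoplasmic reticulum, and Pxdn, the peroxidase that cross-links collagen IV, lay above the WT range, and Ppib, a prolyl isomerase, and Slc39a13, a zinc transporter, lay below it. Some of these margins were small. In Mll3-null replicate 2, P4hb was at 10.87 against a highest WT value of 10.84, and Mia3 at 8.05 against 8.01. Ppib was at 10.81 there against a lowest WT value of 10.84. Of the 25 substrates, 4 showed the pattern (Col6a1, Col6a2, Col7a1 and Col8a1), all below, a share also close to that of all genes. These genes were picked out after their values were seen and have no test.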
